A study of Homo sapiens with 8 samples.

Results

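In IMR90 fibroblasts treated with the small molecule ICM, 140 genes had fewer RNA reads after 3 days than young cells without ICM, and more again after 6 days. They were selected on these values. Reads were scaled to the total of each library as CPM, counts per 1000000 counted read pairs, and a gene was taken when both libraries of young cells and both libraries of 6 days of ICM reached 2 CPM and the lowest of these 4 values was at least 1.3 times the higher of the 2 values at 3 days. Of 28265 counted genes, 12081 reached the CPM minimum and 1.16% of these were members. The dip at 3 days is therefore how the genes were chosen and is described here without a test. The MetaICM libraries took no part in the choice.

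IMR90 is a line of human lung fibroblasts that stops dividing after a limited number of passages. All 8 libraries came from low-passage IMR90s, 2 per condition: young (no ICM named in the labels), 3 days of ICM, 6 days of ICM and MetaICM. The labels give no ICM dose for these libraries, and the study describes treatment with 10 µM. What MetaICM stands for, and how long those cells were exposed, is not defined in the sources used here, so its values are reported under that name alone. The libraries hold "factory" RNA, that is, RNA retained on the transcription sites of nuclei, counted over exons with no regard to strand, and the labels give poly(A) selection. New and already spliced RNA on the exons therefore cannot be told apart, nor can fewer cells making an RNA and less RNA per cell. Nothing states that the 2 libraries of a condition came from separate cultures, so p-values measure only the spread between these libraries.

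Senescence is a stable arrest of the cell cycle that often comes with a secretory phenotype (SASP) of cytokines, growth factors and matrix proteases. ICM, or inflachromene, acts on HMGB1 and HMGB2, chromatin proteins that leave the nucleus of senescent cells. Fibroblasts build and remodel the extracellular matrix, and several of the genes below encode matrix proteins, the enzymes that crosslink or cut them, or the adhesion receptors that bind them.

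Both libraries' values are given in place of a mean and error. The libraries held 12095123 to 23166405 counted pairs. The summed level of 10 fibroblast markers was highest in young IMR90s, at 54484 to 57826 CPM, against 27314 to 28029.6 CPM at 3 days, 21064 to 21223 CPM at 6 days and 34402 to 37185 CPM in MetaICM, and S100A4 was the marker under 1 CPM in every group. Epithelial markers summed to 68.5 to 99.4 CPM in young and 35.98 to 38.8 CPM at 6 days. EPCAM and CDH1 were under 1 CPM throughout, whereas KRT8 and KRT18 reached 1 CPM in every group. Blood markers summed to 4.96 to 6.25 CPM in young and 18.9 to 22.7 CPM at 3 days. They stayed above young at 6 days (18.04 to 21.7 CPM) and in MetaICM (14.0 to 14.6 CPM). CD3E was at 0, whereas CD68 reached 1 CPM in every group. Endothelial markers summed to between 134 and 232 CPM. PECAM1 and CDH5 were under 1 CPM, whereas VWF and TEK reached 1 CPM in every group. Neural markers summed to at most 2.15 CPM. The part of these shifts in the results was not tested. Across all genes at the CPM minimum the median ratio of young to 3-day CPM was 0.930. The typical gene thus took a slightly larger share of counts at 3 days, while the members took a smaller one. The top 10 genes took 16.4% and 15.8% of counts in young and 13.1% and 12.6% at 3 days, which alone shifts the other shares. The paper reports less labelled nascent RNA in nuclei under ICM. CPM cannot show such a change, so higher, lower and regained levels here are relative to each library's total.

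Small nucleolar RNAs were the non-coding class with the most members, and they were chosen for display after their values were seen. These are 4 box C/D snoRNAs of the imprinted cluster on chromosome 14, all inside the span of the host transcript MEG8 on the same strand. They are shown because they lie close together and resemble each other, so that reads on one copy can be counted on another. Letters are read from GRCh37 in the orientation of the gene, and capitals mark exact matches to the C box letters TGATGA and the D box letters CTGA.
SNORD113-2 (chr14:101393679-101393749): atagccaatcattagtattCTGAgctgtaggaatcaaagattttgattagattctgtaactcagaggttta
SNORD113-3 (chr14:101396256-101396326): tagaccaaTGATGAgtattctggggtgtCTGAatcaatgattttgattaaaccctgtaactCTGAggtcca
SNORD113-9 (chr14:101411986-101412056): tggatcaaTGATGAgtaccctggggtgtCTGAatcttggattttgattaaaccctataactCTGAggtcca
SNORD114-16 (chr14:101439932-101440000): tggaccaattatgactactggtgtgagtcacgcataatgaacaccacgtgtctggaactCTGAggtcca
Aligned end to end, SNORD113-3 and SNORD113-9 were identical at 88.7% of positions, and SNORD113-2 and SNORD114-16, the least alike, at 58.7%.

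Promoters are shown for 3 members that were chosen for display after their values were seen. They are CEMIP, which breaks down hyaluronan and had one of the largest dips, VCAM1, an adhesion molecule with one of the largest differences between conditions, and HSPA5, the main chaperone of the endoplasmic reticulum. Each runs from 250 bases before to 50 bases after the transcription start in RefSeq (GRCh38.p14), and capitals mark matches to the searched motifs.
CEMIP (chr15:80779120-80779419, plus strand): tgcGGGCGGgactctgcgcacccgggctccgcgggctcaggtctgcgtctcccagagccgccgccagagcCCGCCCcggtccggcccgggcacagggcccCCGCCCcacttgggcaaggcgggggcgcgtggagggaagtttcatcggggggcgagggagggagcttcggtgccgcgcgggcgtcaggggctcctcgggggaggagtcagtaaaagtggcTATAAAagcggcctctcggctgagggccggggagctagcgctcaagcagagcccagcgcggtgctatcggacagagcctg
VCAM1 (chr1:100719492-100719791, plus strand): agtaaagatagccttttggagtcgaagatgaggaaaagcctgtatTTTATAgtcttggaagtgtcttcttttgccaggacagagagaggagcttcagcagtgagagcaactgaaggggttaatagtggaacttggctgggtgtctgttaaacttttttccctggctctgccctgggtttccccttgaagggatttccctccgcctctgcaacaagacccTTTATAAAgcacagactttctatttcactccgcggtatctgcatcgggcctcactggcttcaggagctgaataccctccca
HSPA5 (chr9:125241294-125241593, minus strand): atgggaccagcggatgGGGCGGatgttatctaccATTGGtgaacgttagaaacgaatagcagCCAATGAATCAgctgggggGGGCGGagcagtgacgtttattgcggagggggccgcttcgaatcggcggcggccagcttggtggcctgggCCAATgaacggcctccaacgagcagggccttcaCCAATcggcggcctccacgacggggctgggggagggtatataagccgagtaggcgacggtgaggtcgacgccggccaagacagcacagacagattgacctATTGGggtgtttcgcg
By these exact letters, the CEMIP window held a TATA box and a GC box. That of VCAM1 held a TATA box, and that of HSPA5 a CCAAT box, a GC box and an AP-1 match. GC content was 73.0% for CEMIP, 48.3% for VCAM1 and 61.3% for HSPA5. Promoters of this length were found for 101 of the 140 members and for 9466 genes at the CPM minimum. The ETS letters CCGGAAG stood in 2.97% of the members' promoters, those of C5orf34, LCLAT1 and TTC13, beside 20.3% of the promoters of genes at the CPM minimum and 10.7% of all 27305 promoters. The E-box letters CACGTG were in 4.95%, beside 10% of genes at the minimum and 7.43% of all promoters. Shares were closer for the TATA box TATAAA (4.95%, 5.59% and 12% in the same order), the CCAAT box CCAAT (42.6%, 36.9% and 35.7%) and the GC box GGGCGG (64.4%, 69.9% and 44.6%). For the other letters the shares were 1.98%, 3.41% and 1.98% (CRE, TGACGTCA), 5.94%, 4.46% and 7.76% (AP-1, TGANTCA), 11.9%, 10.9% and 14.0% (TEAD, GGAATG), 1.98%, 1.09% and 1.3% (NF-kB, GGGANTTTC), 3.96%, 9.06% and 13.1% (RUNX, TGTGGT), 1.98%, 2.25% and 3.41% (FOX, TGTTTAC), and 18.8%, 15.3% and 13.6% (ARE, TGACNNNGC). All letters were searched on both strands, and the shares are given without a test. Only exact letters count as a match. A window without one, such as that of VCAM1 for NF-kB or of HSPA5 for the TATA box, can still hold a variant of the motif.

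The dip was mostly modest. Young CPM was a median of 2.03 times the 3-day CPM (range 1.35 to 14.5), and the 6-day CPM a median of 1.67 times (range 1.36 to 6.64). The margin, that is, the lowest young or 6-day value over the higher 3-day value, was at least 1.5 for 53 members, at least 2 for 13 and at least 3 for 3. It was set by a 6-day library in 91 members and by a young library in 49. Without any margin, both 3-day libraries lay below the other 4 in 979 genes, or 8.1% of those at the CPM minimum. The members took 3.64% and 3.75% of all counts in the young libraries, 1.89% and 2.02% at 3 days, 3.09% and 3.11% at 6 days, and 3.09% and 3.03% in MetaICM.

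**Figure D1:**
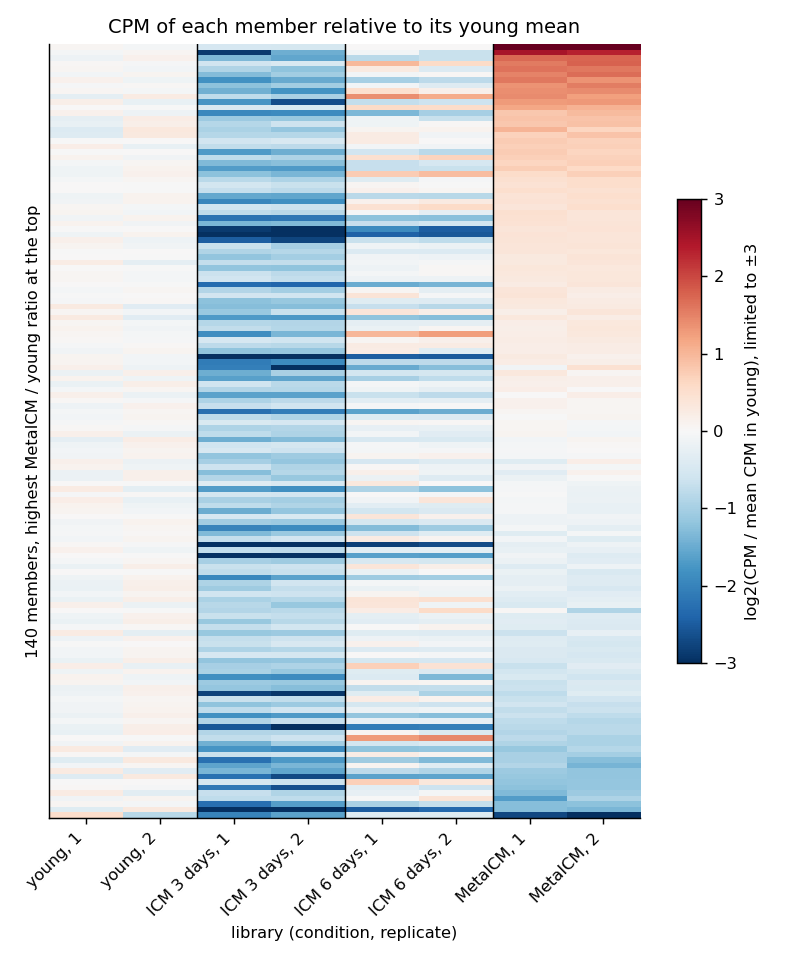
Colour gives log2 of CPM over the member's mean CPM in young for each of the 140 members (vertical) in each of the 8 libraries (horizontal), limited to 3 in either direction. Both 3-day columns are below young in every member because the members were chosen that way, the 6-day columns are mostly between, and the MetaICM columns run from above young at the top to below young at the foot.

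In most members the 6-day mean stayed below the young mean. The values of young, 3 days and 6 days chose the members, so this is a description. The share of the 3-day decrease regained at 6 days had a median of 71.6%, from 4.65% to 524%. The 6-day mean was at or above the young mean in 39 members and under 50% of it in 20. AURKA, which encodes a mitotic kinase, regained least: 69.2 and 65.8 CPM in young, 7.25 and 7.36 at 3 days, 9.68 and 10.5 at 6 days, and 55.7 and 60.6 in MetaICM. Its 6-day libraries were closer to the 3-day libraries than to young. PTPRQ, a receptor-type phosphatase, regained most: 19.04 and 18.5 CPM in young, 11.3 and 12.3 at 3 days, 45.6 and 51.3 at 6 days, and 10.9 and 9.799 in MetaICM. Here the 6-day libraries stood above all others.

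At the edge of the rule, ARHGAP6 (margin 1.30282), DSN1 (1.30317) and CENPN (1.30533) were just inside. CAV1 (margin 1.29985), GALNT12 (1.29744) and GPAM (1.29147) were just outside. CAV1, the main protein of caveolae, had 295 and 361 CPM in young, 206 and 219 CPM at 3 days, and 291 and 285 CPM at 6 days, so the boundary separates genes whose values differed little.

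The 12 members with the largest margin were COLEC12, KIT, CEMIP, FGL2, CCL2, FAT3, BMPER, ANO1, NALCN, MT1E, DLL4 and SFMBT1. COLEC12, a scavenger receptor of the collectin family, had 7.502 and 9.18 CPM in young, 1.22 and 1.11 at 3 days, 6.47 and 4.29 at 6 days, and 4.95 and 6.47 in MetaICM. KIT, the receptor of stem cell factor (GRCh37 chromosome 4, 55524095 to 55606881, plus strand), had 17.1 and 19.8 CPM in young, 4.76 and 5.14 at 3 days, 20.2 and 22.4 at 6 days, and 24.98 and 25.4 in MetaICM. KIT was back above both young libraries at 6 days, whereas the 6-day libraries of COLEC12 differed from each other and lay below young. CEMIP (GRCh37 chromosome 15, 81071711 to 81244112, plus strand) had 1738 and 1406 CPM in young, 284 and 235 at 3 days, 996 and 919.9 at 6 days, and 2059 and 2021 in MetaICM. It returned only part of the way at 6 days and was above both young libraries in MetaICM.

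FGL2, a fibrinogen-like secreted protein whose gene lies inside the span of CCDC146 on the opposite strand, had 50.5 and 48.8 CPM in young, 11.3 and 7.99 at 3 days, 39.7 and 32.1 at 6 days, and 21.2 and 22.2 in MetaICM. FAT3, an atypical cadherin, had 73.9 and 73.2 CPM in young, 6.17 and 9.44 at 3 days, 23.7 and 23.3 at 6 days, and 68.1 and 56.3 in MetaICM. ANO1, a calcium-activated chloride channel (GRCh37 chromosome 11, 69924646 to 70035636, plus strand), had 48.6 and 43.7 CPM in young, 3.58 and 2.78 at 3 days, 8.27 and 8.096 at 6 days, and 55.7 and 50.6 in MetaICM. FAT3 and ANO1 stayed far below young at 6 days and were back near young in MetaICM, and FGL2 was lower in MetaICM than at 6 days. NALCN, a sodium leak channel, had 11.8 and 10.4 CPM in young, 2.59 and 2.99 at 3 days, 6.47 and 6.403 at 6 days, and 13.03 and 12.5 in MetaICM. DLL4, a Notch ligand, had 8.92 and 6.78 CPM in young, 2.31 and 1.25 at 3 days, 4.79 and 5.08 at 6 days, and 19.1 and 19.4 in MetaICM. Both were only partly restored at 6 days.

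BMPER, a secreted modulator of BMP signalling, had 27.5 and 24.97 CPM in young, 7.21 and 10.1 at 3 days, 52.3 and 62.8 at 6 days, and 29.9 and 32.5 in MetaICM. MT1E, a metal-binding metallothionein with close copies in the genome, had 8.64 and 10.3 CPM in young, 4.05 and 3.68 at 3 days, 15.9 and 17.8 at 6 days, and 13.9 and 15.6 in MetaICM. In both, the 6-day libraries were above both young libraries. SFMBT1, a chromatin protein with MBT repeats, had 6.19 and 6.04 CPM in young, 2.68 and 2.64 at 3 days, 5.49 and 6.24 at 6 days, and 7.74 and 7.597 in MetaICM.

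**Figure D2:**
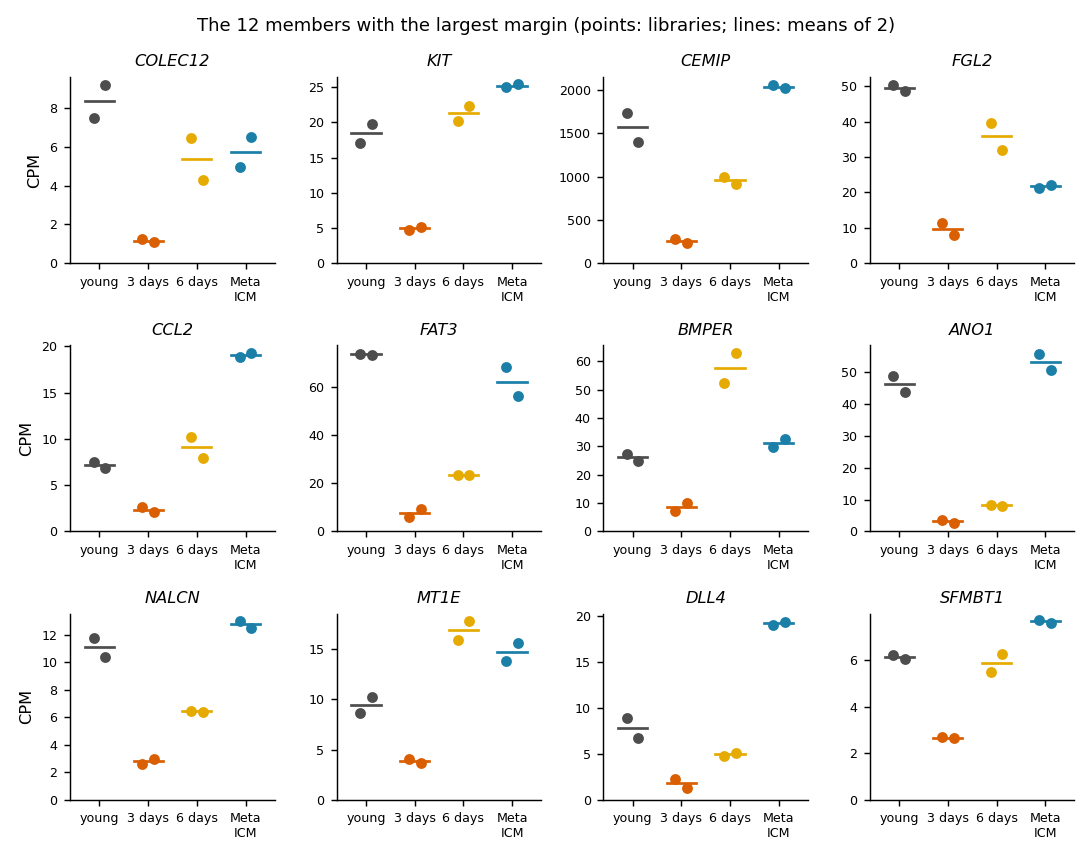
CPM (vertical axis, from 0) in young, 3 days of ICM, 6 days of ICM and MetaICM for the 12 members with the largest margin, where points are libraries and lines the means of 2. The 3-day points are below young and 6 days in each panel by selection. MetaICM, which was not used in the choice, was above 3 days in each panel. It was below the 6-day level in FGL2, BMPER and MT1E. In KIT, CEMIP, CCL2, ANO1, NALCN, DLL4 and SFMBT1 it was the highest level.

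The 10 members with the most reads in young were IGFBP5, EEF1A1, FBN2, CEMIP, SPARC, TUBA1B, EPRS1, HSPA5, RHOBTB3 and LOX. IGFBP5, a secreted IGF-binding protein (GRCh37 chromosome 2, 217536828 to 217560272, minus strand), had 20466 and 22069 CPM in young, 11594 and 13104 at 3 days, 18046 and 18046 at 6 days, and 12570.3 and 11837 in MetaICM. Its MetaICM libraries lay between those of 3 days. EEF1A1, a translation elongation factor, had 2821 and 2461 CPM in young, 1579 and 1462 at 3 days, 2318 and 2764 at 6 days, and 2988 and 3339 in MetaICM, and TUBA1B, an alpha-tubulin, had 813 and 572 CPM in young, 423 and 416 at 3 days, 658 and 678 at 6 days, and 849 and 894 in MetaICM. Both have near-identical paralogs or pseudogenes, so that a read can fit several places and their levels are uncertain. EPRS1, a tRNA synthetase, had 593 and 622 CPM in young, 441 and 426 at 3 days, 637 and 623 at 6 days, and 637 and 597 in MetaICM, and RHOBTB3 had 502 and 569 CPM in young, 351 and 346 at 3 days, 565 and 487 at 6 days, and 427 and 425 in MetaICM. The 6 libraries of EPRS1 outside 3 days lay close together, and RHOBTB3 was lower in MetaICM than at 6 days in both libraries.

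Beyond the dip itself 4 comparisons were made, and each involves at least 1 group whose libraries entered the rule. Shares of all genes are therefore printed for scale only, since those genes were not selected in the same way. All 140 members passed the count filter of every fit. A gene was called when the adjusted p-value was under 0.05 and log2FC beyond 0.6 in edgeR's quasi-likelihood test over all genes with Benjamini-Hochberg adjustment. The comparisons of 6 days and of MetaICM with young share the young libraries, and those of MetaICM with each other group share the MetaICM libraries, so they are not independent of each other.

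The values of young and of 6 days both chose the members, so the differences between them are a description, given without p-values, and nothing is read from the share of members called. Of 140 members, 39 (27.9%) were called lower at 6 days and 5 (3.57%) higher; the shares over 15950 genes tested were 17.2% and 13.3%. The median log2FC of members was −0.24, beside −0.00129 over all genes tested. By CPM alone, both 6-day libraries lay below both young libraries in 71 members and above in 24, beside 32.0% and 42.7% of genes at the CPM minimum. A 6-day library set the margin in most members, as given above.

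The called members with the lowest log2FC at 6 days were AURKA, ANO1, VCAM1 and GUCY1B1. AURKA had a log2FC of −2.78 (SE 0.14). For ANO1 there was a log2FC of −2.54 (SE 0.15). VCAM1, which binds leukocyte integrins, had 143 and 169 CPM in young, 15.3 and 13.2 at 3 days, 28.8 and 26.99 at 6 days, and 206 and 202 in MetaICM, with a 6-day log2FC of −2.52 (SE 0.12). GUCY1B1, a subunit of soluble guanylate cyclase, had 12.6 and 19.9 CPM in young, 1.74 and 1.74 at 3 days, 2.88 and 3.17 at 6 days, and 6.66 and 6.26 in MetaICM, with a 6-day log2FC of −2.45 (SE 0.24). In these 4 genes both 6-day libraries were far below both young libraries. The 5 called higher were PTPRQ (log2FC of 1.32, SE 0.14), ABCA8, a lipid transporter (log2FC of 1.24, SE 0.18), BMPER (log2FC of 1.09, SE 0.14), MT1E (log2FC of 0.80, SE 0.17) and NSG1, a neuronal vesicle protein (log2FC of 0.73, SE 0.19). ABCA8 had 10.3 and 15.1 CPM in young, 7.54 and 6.46 at 3 days, 33.4 and 27.7 at 6 days, and 34.2 and 30 in MetaICM. Without ICM 6 days replicate 1, NSG1 was no longer called.

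In MetaICM, members were called on both sides of young. Of 140 members, 23 (16.4%) were called higher and 22 (15.7%) lower, beside 7.41% and 8.99% of 15904 genes tested. The median log2FC was −0.02, with members on both sides from −3.09 to 3.35. Both MetaICM libraries lay above both young libraries in 58 members and below in 50, beside 41.0% and 30.7% of genes at the CPM minimum. Without MetaICM replicate 2 the number called lower fell to 13.

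The members that rose most were ITGA8, ADAMTS19, CCND2 and NSG1. ITGA8, an integrin subunit that binds matrix ligands (GRCh37 chromosome 10, 15555948 to 15762334, minus strand), had 5.34 and 4.88 CPM in young, 3.63 and 3.54 at 3 days, 5.11 and 5.13 at 6 days, and 58.8 and 48.4 in MetaICM. Its mean in MetaICM was 10.5 times that of young, while its 6-day libraries lay between those of young, with a log2FC of 3.35 (SE 0.17, edgeR adjusted p = 6.96e-06). ADAMTS19, a secreted metalloprotease, had 4.603 and 5.04 CPM in young, 0.659 and 1.74 at 3 days, 4.57 and 3.02 at 6 days, and 26.99 and 24.04 in MetaICM, with a log2FC of 2.38 (SE 0.16, edgeR adjusted p = 2.82e-05). CCND2, the D-type cyclin D2, had 23.4 and 28.7 CPM in young, 10.3 and 8.82 at 3 days, 14.96 and 16.3 at 6 days, and 85.4 and 86.7 in MetaICM, with a log2FC of 1.71 (SE 0.12, edgeR adjusted p = 3.76e-05). NSG1 had 7.22 and 6.86 CPM in young, 4.62 and 5.14 at 3 days, 13.7 and 10.4 at 6 days, and 20.6 and 24.1 in MetaICM, with a log2FC of 1.64 (SE 0.16, edgeR adjusted p = 1.83e-04). In each of these 4 genes, both MetaICM libraries were above the other 6.

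Among those that fell in MetaICM, IL1B had 6.99 and 2.73 CPM in young, 1.22 and 1.597 at 3 days, 3.75 and 3.704 at 6 days, and 0.735 and 0.475 in MetaICM, with a log2FC of −3.09 (SE 0.48, edgeR adjusted p = 0.002). The young libraries of IL1B differed widely, and its MetaICM libraries held 15 and 11 counts. GUCY1B1 had a log2FC of −1.34 (SE 0.21, edgeR adjusted p = 0.00201). TUSC7, a long non-coding RNA, had 6.37 and 5.79 CPM in young, 1.27 and 1.94 at 3 days, 3.15 and 3.704 at 6 days, and 2.498 and 2.59 in MetaICM, with a log2FC of −1.29 (SE 0.22, edgeR adjusted p = 0.00327). TRPC4, a cation channel, had 7.05 and 8.02 CPM in young, 4.47 and 4.44 at 3 days, 7.51 and 9.895 at 6 days, and 2.35 and 3.97 in MetaICM, with a log2FC of −1.26 (SE 0.25, edgeR adjusted p = 0.00641). The TRPC4 call ended without MetaICM replicate 1 (adjusted p = 0.064).

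**Figure D3:**
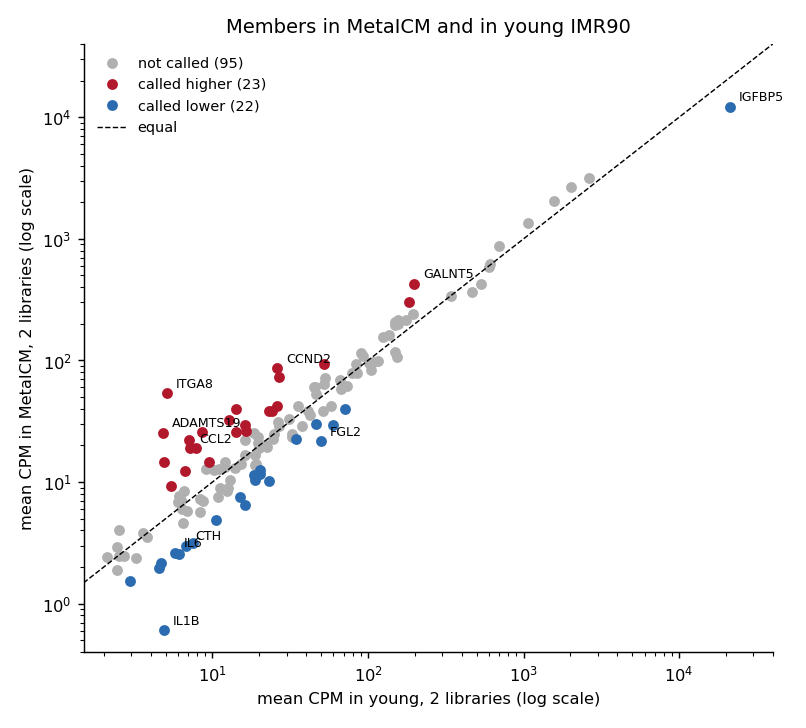
Mean CPM of the 140 members in MetaICM (vertical) against young (horizontal), both on log axes, with red for the 23 called higher, blue for the 22 called lower, grey for the rest and a dashed line where both are equal. ITGA8 and ADAMTS19 stand farthest above the line and IL1B farthest below.

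Against 6 days, MetaICM was more often called higher than lower. The 6-day libraries entered the rule and set the margin in 91 members, so this direction is a description. Of 140 members, 46 (32.9%) were called higher and 14 (10%) lower, beside 15.7% and 12% of 16036 genes tested, with a median log2FC of 0.28. Both MetaICM libraries were above both 6-day libraries in 82 members and below in 39, beside 38.0% and 41.7% of genes at the CPM minimum. ITGA8 (log2FC of 3.40, SE 0.12, edgeR adjusted p = 2.09e-15), VCAM1 (log2FC of 2.89, SE 0.08, edgeR adjusted p = 2.77e-17), ADAMTS19 (log2FC of 2.77, SE 0.15, edgeR adjusted p = 1.88e-12) and ANO1 (log2FC of 2.72, SE 0.10, edgeR adjusted p = 4.63e-15) rose most. IL1B (log2FC of −2.61, SE 0.31, edgeR adjusted p = 3.26e-07), PTPRQ (log2FC of −2.21, SE 0.10, edgeR adjusted p = 1.39e-13), CTH, which makes cysteine (log2FC of −1.69, SE 0.18, edgeR adjusted p = 1.14e-07), and TRPC4 (log2FC of −1.43, SE 0.22, edgeR adjusted p = 9.94e-06) fell most. CTH had 6.71 and 6.86 CPM in young, 4.71 and 4.37 at 3 days, 11.1 and 8.57 at 6 days, and 2.99 and 3.02 in MetaICM, so that MetaICM was the lowest group. In the same comparison 34 of the 35 genes of a mitosis list were called higher, of which only AURKA is a member (log2FC of 2.54, SE 0.10, edgeR adjusted p = 6.41e-15). The part of dividing cells in the other members' values was not tested.

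Against 3 days, the libraries with which the members were chosen on their low side, the fit called MetaICM higher in 103 members (73.6%) and lower in 1, IL1B; the shares over 16209 genes tested were 13.1% and 10.3%. Both MetaICM libraries were above both 3-day libraries in 127 members and below in 6, beside 34.6% and 41.1% of genes at the CPM minimum. Low 3-day values were required of every member, so these counts follow from the choice and nothing is read from them. MetaICM had the lowest mean of the 4 groups in 8 members. The order of mean CPM was 3 days, 6 days, young, MetaICM from low to high in 49 members, and 3 days, 6 days, MetaICM, young in 28. Both MetaICM libraries exceeded the other 6 in 50 members and lay below them in 6, where the shares of genes at the CPM minimum were 14.7% and 14.2%; the low 3-day values of members make the first easier to meet and the second harder.

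**Figure D4:**
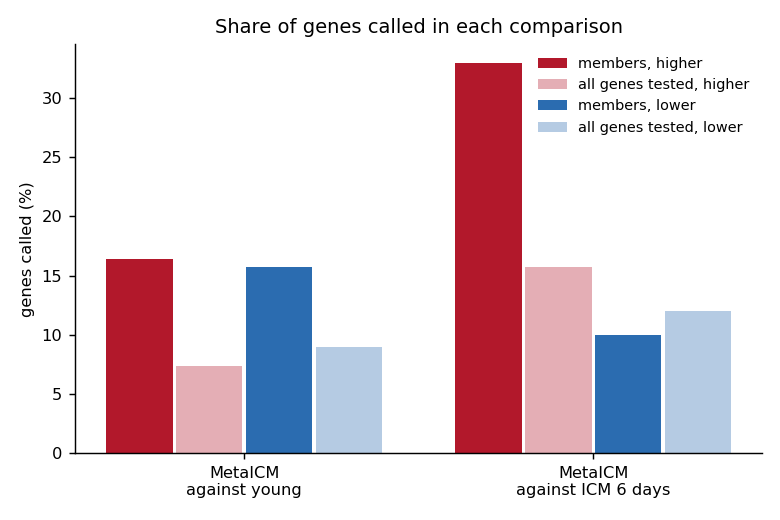
Percent of genes called higher (red) and lower (blue) in MetaICM against young and against 6 days, for the 140 members (full colour) and for all genes tested (pale). Members called higher reach 16.4% against young and 32.9% against 6 days, and members called lower 15.7% and 10%.

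By function, of 30 gene lists with 979 entries, 15 had at least 1 member and 27 members were in a list. Among SASP cytokines and chemokines, 3 of the 15 genes at the CPM minimum were members: CCL2, IL1B and IL6. They parted in MetaICM. CCL2, a monocyte chemoattractant (GRCh37 chromosome 17, 32582304 to 32584220, plus strand), had 7.502 and 6.86 CPM in young, 2.64 and 2.08 at 3 days, 10.2 and 7.99 at 6 days, and 18.9 and 19.3 in MetaICM, and rose over young (log2FC of 1.38, SE 0.16, edgeR adjusted p = 3.98e-04). IL6 (GRCh37 chromosome 7, 22766819 to 22771617, plus strand) had 6.93 and 4.55 CPM in young, 2.21 and 1.94 at 3 days, 3.32 and 3.07 at 6 days, and 2.69 and 2.55 in MetaICM, and was lower at 6 days (log2FC of −0.92, SE 0.26) and fell in MetaICM (log2FC of −1.18, SE 0.26, edgeR adjusted p = 0.00966). Its MetaICM call ended without MetaICM replicate 2. The 6-day call of IL6 ended without young replicate 1, where the log2FC was −0.529, and without either 6-day replicate. Of the whole list, 4 were called higher and 5 lower among 20 tested in MetaICM against young (7.41% and 8.99% over all genes tested). At 6 days against young, 4 were higher and 7 lower among 24 (13.3% and 17.2%). In MetaICM against 6 days, 5 were higher and 10 lower among 23 (15.7% and 12%). Of 24 NF-kB pathway genes at the minimum, only VCAM1 was a member. Of the 26 NF-kB genes tested, 11 were called lower and 0 higher at 6 days against young (17.2% and 13.3% over all genes tested), 12 higher and 1 lower in MetaICM against 6 days (15.7% and 12%), and 0 higher and 2 lower in MetaICM against young (7.41% and 8.99%).

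Matrix genes gave 4 members of 41 at the CPM minimum: FBN2, SPARC, LOX and ADAMTS5. FBN2, a fibrillin of elastic microfibrils (GRCh37 chromosome 5, 127593601 to 127873938, minus strand), had 1882 and 2166 CPM in young, 437 and 451 at 3 days, 864 and 851 at 6 days, and 2800.0 and 2586 in MetaICM. It was lower at 6 days than in young (log2FC of −1.28, SE 0.12) and was higher in MetaICM than at 6 days (log2FC of 1.67, SE 0.08, edgeR adjusted p = 4.09e-13). SPARC, a collagen-binding glycoprotein, had 1110.0 and 1038 CPM in young, 717 and 652 at 3 days, 968 and 973 at 6 days, and 1313 and 1362 in MetaICM. LOX, which crosslinks collagen and elastin, had 404 and 523 CPM in young, 241 and 258 at 3 days, 605 and 651 at 6 days, and 355 and 378 in MetaICM, and was lower in MetaICM than at 6 days (log2FC of −0.76, SE 0.08, edgeR adjusted p = 3.37e-08). ADAMTS5, an aggrecanase, had 87.1 and 99.5 CPM in young, 40.4 and 41.6 at 3 days, 109 and 72.5 at 6 days, and 107 and 108 in MetaICM, with 6-day libraries that differed widely. Of the 44 matrix genes tested, 7 were called higher and 23 lower at 6 days against young (13.3% and 17.2% over all genes tested), 18 higher and 8 lower in MetaICM against 6 days (15.7% and 12%), and 5 higher and 12 lower in MetaICM against young (7.41% and 8.99%). Among integrins and laminins, ITGA8 and the laminin chain LAMA2 were members of 23 at the minimum, and LAMA2 was not called in any of the comparisons with young or 6 days: it had 57.2 and 58.8 CPM in young, 36.6 and 41.7 at 3 days, 63.5 and 55.03 at 6 days, and 44.9 and 40.2 in MetaICM. No collagen was a member, of 26 at the minimum, where members were 1.16% of all genes at the minimum.

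The ADAMTS and ADAMTS-like family, grouped after its values were seen, held 6 members of 17 at the CPM minimum: ADAMTS5, ADAMTS8, ADAMTS9, ADAMTS15, ADAMTS19 and ADAMTSL1. These are secreted enzymes, or in ADAMTSL1 an enzyme-free relative, that act in the matrix. ADAMTS8 had 148 and 152 CPM in young, 20.3 and 16.9 at 3 days, 40.5 and 27.1 at 6 days, and 192 and 201 in MetaICM, and ADAMTS15 had 17.6 and 23.1 CPM in young, 3.49 and 2.01 at 3 days, 4.79 and 4.92 at 6 days, and 11.6 and 11.6 in MetaICM. Both were lower at 6 days than in young (ADAMTS8 log2FC of −2.20, SE 0.17, ADAMTS15 log2FC of −2.10, SE 0.18). In MetaICM they parted, ADAMTS8 standing above both young libraries with a log2FC of 0.36 (SE 0.10, edgeR adjusted p = 0.0264), short of the fold cutoff, and ADAMTS15 falling with a log2FC of −0.83 (SE 0.16, edgeR adjusted p = 0.00476). ADAMTS9 had 10.7 and 17.9 CPM in young, 7.39 and 6.39 at 3 days, 15.1 and 15.4 at 6 days, and 28.9 and 22.4 in MetaICM, and ADAMTSL1 had 23.6 and 15.4 CPM in young, 6.03 and 5.903 at 3 days, 8.43 and 7.99 at 6 days, and 24.2 and 22.6 in MetaICM. The other 11 at the minimum were not members. In 2 of these, ADAMTS3 and ADAMTS12, both 3-day libraries were below the young and 6-day libraries without the margin. With the 6 members, which meet this by the rule, it held for 8 of the 17. The share of all genes at the CPM minimum was 8.1%. Since the family was grouped after its values were seen, nothing is read from this count. ADAMTS3 had 8.58 and 8.599 CPM in young, 4.38 and 4.58 at 3 days, and 5.602 and 5.98 at 6 days. ADAMTS1 had no such dip and was higher at 6 days (2257 and 2383 CPM) than in young (1350 and 1197 CPM).

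The list of ATF4 and unfolded protein response genes had 3 members of 27 at the minimum, HSPA5, DDIT4 and VLDLR. In 8 of the 27, both 3-day libraries were below the young and 6-day libraries without the margin, beside 8.1% of all genes at the minimum. The 3 members are among these 8 by the rule. HSPA5 (GRCh37 chromosome 9, 127997132 to 128003622, minus strand) had 558 and 647 CPM in young, 267 and 287 at 3 days, 642 and 656 at 6 days, and 578 and 588 in MetaICM, so that the 6-day and MetaICM libraries were back at the young level. DDIT4, an inhibitor of mTORC1, had 49.3 and 33.6 CPM in young, 12.9 and 11.6 at 3 days, 21.9 and 17.6 at 6 days, and 40.4 and 36.95 in MetaICM, and was lower at 6 days than in young (log2FC of −1.13, SE 0.20). VLDLR, a lipoprotein receptor, had 61.1 and 82.02 CPM in young, 39 and 38.7 at 3 days, 74.9 and 53.2 at 6 days, and 39.2 and 40.8 in MetaICM, and fell in MetaICM (log2FC of −0.86, SE 0.14, edgeR adjusted p = 0.00223). The 5 that missed the margin were CHAC1, DDIT3, HERPUD1, SEL1L and XBP1.

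Notch, Hedgehog and axon guidance genes gave 3 members of 27 at the minimum. JAG1, a Notch ligand, had 127 and 106 CPM in young, 69.9 and 67.3 at 3 days, 93.1 and 95.1 at 6 days, and 99.4 and 98.6 in MetaICM. SEMA3D, a secreted semaphorin, had 16.4 and 20.7 CPM in young, 5.28 and 5.69 at 3 days, 8.21 and 7.62 at 6 days, and 11.95 and 10.9 in MetaICM, and was lower at 6 days than in young (log2FC of −1.26, SE 0.17). PLXNA2, a semaphorin receptor, had 7.33 and 5.54 CPM in young, 3.25 and 3.403 at 3 days, 10.6 and 8.73 at 6 days, and 4.07 and 5.09 in MetaICM, and was lower in MetaICM than at 6 days (log2FC of −1.05, SE 0.17, edgeR adjusted p = 2.62e-05). DLL4, named above for its margin, rose in MetaICM against young (log2FC of 1.25, SE 0.17, edgeR adjusted p = 0.00122). At 6 days its mean was below that of young (log2FC of −0.73, SE 0.22). WNT signalling gave ROR1, a WNT receptor (40.5 and 44.2 CPM in young, 21.1 and 20.1 at 3 days, 30.3 and 29.6 at 6 days, and 37.4 and 33.5 in MetaICM), and the ligand WNT3 (2.05 and 2.15 CPM in young, 1.22 and 1.18 at 3 days, 2.502 and 2.49 at 6 days, and 2.4 and 2.46 in MetaICM), of 25 at the minimum. WNT3 was close to the CPM minimum.

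Cell cycle inhibitors and D cyclins gave CCND2 and CDKN1B of 12 at the minimum. CDKN1B, which encodes the CDK inhibitor p27, had 23.6 and 26.4 CPM in young, 17.9 and 16.2 at 3 days, 24.04 and 24.2 at 6 days, and 24.4 and 24.99 in MetaICM, with the 6 libraries outside 3 days in a narrow range. AURKA was the 1 member among 29 mitosis genes at the minimum, and its entry rests on 6-day values little above those of 3 days. Of 35 mitosis genes tested, 34 were called lower and 0 higher at 6 days against young (17.2% and 13.3% over all genes tested). In MetaICM against young, 15 were lower and 0 higher (8.99% and 7.41%). Single members also came from other lists. FGF5, a growth factor, had 95.5 and 112 CPM in young, 27.1 and 33.9 at 3 days, 49.5 and 50.5 at 6 days, and 86.5 and 79.6 in MetaICM. FST, which binds activin, had 166 and 132 CPM in young, 83.7 and 67.2 at 3 days, 191 and 137 at 6 days, and 108 and 128 in MetaICM. NPAS2, a clock transcription factor, had 17.96 and 20.3 CPM in young, 10.1 and 10.5 at 3 days, 14.4 and 14.5 at 6 days, and 14.1 and 13.9 in MetaICM. NFIA, a transcription factor of development, had 8.298 and 12.9 CPM in young, 2.26 and 3.19 at 3 days, 5.06 and 4.23 at 6 days, and 5.44 and 4.403 in MetaICM, and fell in MetaICM (log2FC of −1.11, SE 0.23, edgeR adjusted p = 0.00703), a call that ended without MetaICM replicate 2 (adjusted p = 0.0614). VCAM1 and TRPC4, described above, were likewise single members of a list. None of the immediate early, interferon, p53, NRF2, hypoxia, mitochondrial respiration, ribosome biogenesis or splicing genes was a member. The same was true of the collagen, contractile, heat shock, E2F, chromatin architecture, lysosome and cAMP lists. Members were 1.16% of all genes at the CPM minimum, so lists of this size without a member are near that share and nothing is read from them. Of 31 ribosome biogenesis genes at the minimum, 9 had both 3-day libraries below the young and 6-day libraries without the margin. The share of all genes at the minimum was 8.1%.

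By gene class, 132 members were protein coding, 4 snoRNAs, 2 long non-coding RNAs and 2 transcribed pseudogenes. Members spanned a median of 57192 bases of the genome, beside 30074 for genes at the CPM minimum, and 35.7% of them spanned at least 100 kb, beside 18.4%. Median exon GC content was 45.7%, beside 47.7%. Exon bases shared with another gene, on which reads were not assigned, were found in 16.4% of members and 23.5% of genes at the minimum. By symbol, there were 4 zinc finger genes of 492 at the minimum, 2 histone genes (H2AC15 and H4C8) of 32, and no ribosomal protein gene of 94. Members were 1.16% of all genes at the minimum. H2AC15 and H4C8 have near-identical copies, and their counts are uncertain.

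Some members were neighbours, and those named here only for their position (CD274, PDCD1LG2, TUBE1 and FAM229B) were chosen after their values were seen. CD274 and PDCD1LG2, which encode the PD-1 ligands PD-L1 and PD-L2, lie 39963 bases apart on chromosome 9 with no other gene at the CPM minimum between them. CD274 had 34.6 and 27.3 CPM in young, 10.2 and 10.2 at 3 days, 19.5 and 18.04 at 6 days, and 31.1 and 35.3 in MetaICM, and PDCD1LG2 had 48.6 and 42.3 CPM in young, 17.5 and 18.1 at 3 days, 28.3 and 31.01 at 6 days, and 60.98 and 59.9 in MetaICM. Both were lower at 6 days than in young (CD274 log2FC of −0.77, SE 0.16, PDCD1LG2 log2FC of −0.66, SE 0.14). ADAMTS8 and ADAMTS15 lie 20364 bases apart on chromosome 11 in divergent orientation. TUBE1, a member of the tubulin superfamily, and FAM229B start 108 bases apart on opposite strands of chromosome 6. TUBE1 had 16.5 and 21.7 CPM in young, 8.38 and 8.61 at 3 days, 13.3 and 13.5 at 6 days, and 13.6 and 13.9 in MetaICM, and FAM229B had 5.97 and 7.77 CPM in young, 4.33 and 4.44 at 3 days, 8.81 and 7.78 at 6 days, and 5.29 and 6.17 in MetaICM. Since strand was not used in counting, reads from overlapping transcripts of such a pair cannot be separated.

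Of 40 counted SNORD113 and SNORD114 genes, 19 reached the CPM minimum and 4 were members. In 12 of the 19, both 3-day libraries were below the young and 6-day libraries without the margin, beside 8.1% of all genes at the minimum. The 4 members are among these 12 by the rule. The cluster was picked after its values were seen, so nothing is read from this count. SNORD113-2, whose sequence is given above, had 9.95 and 12.4 CPM in young, 5.84 and 7.5 at 3 days, 10.7 and 10.8 at 6 days, and 9.21 and 8.59 in MetaICM. SNORD113-3 had 11.4 and 14.6 CPM in young, 6.26 and 7.92 at 3 days, 11.3 and 12.1 at 6 days, and 11.5 and 9.28 in MetaICM. SNORD113-9 had 3.69 and 3.47 CPM in young, 1.88 and 2.08 at 3 days, 2.88 and 2.96 at 6 days, and 3.92 and 3.76 in MetaICM, and SNORD114-16 had 2.27 and 2.73 CPM in young, 1.65 and 1.74 at 3 days, 2.45 and 2.28 at 6 days, and 2.4 and 2.55 in MetaICM. Their differences between MetaICM, 6 days and young did not pass the test, which does not show that they were equal. MEG8, the transcript around them, was at 397 and 456 CPM in young, 246 and 279 CPM at 3 days, 339 and 369 CPM at 6 days, and 408 and 396 CPM in MetaICM. MEG3, which lies upstream in the same cluster, was at 810 and 1096 CPM in young and 880 and 861 CPM at 3 days, so these groups overlapped. At 6 days (1194 and 1345 CPM) and in MetaICM (1278 and 1236 CPM) it was above all young and 3-day libraries.

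**Figure D5:**
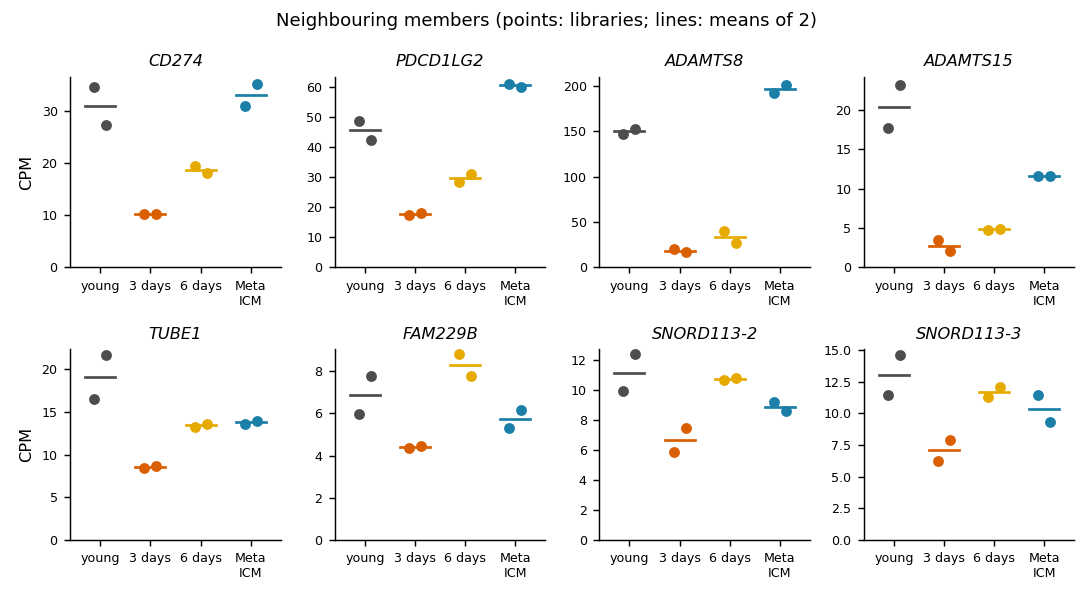
CPM (vertical axis, from 0) of 8 members that have another member nearby, in the 4 conditions, where points are libraries and lines the means of 2. CD274 and PDCD1LG2 follow the same order of group means, but the MetaICM libraries overlap those of young in CD274 and lie above them in PDCD1LG2. ADAMTS8 and ADAMTS15 differ in MetaICM, and TUBE1 and FAM229B differ at 6 days.

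A few further members were picked after their values were seen: IGFBP3, GPR137C, GCNT4, CLDN11, GFRA1 and FGF9 for margins close behind those of the 12 above, and CLDN1 as another claudin. GPR137C had 4.43 and 4.88 CPM in young, 1.55 and 1.81 at 3 days, 4.89 and 3.6 at 6 days, and 2.55 and 1.77 in MetaICM. Its MetaICM libraries overlapped those of 3 days. IGFBP3, a secreted IGF-binding protein, had 164 and 145 CPM in young, 72.1 and 71.8 at 3 days, 165 and 161 at 6 days, and 97.8 and 114 in MetaICM, so that 6 days matched young and MetaICM was lower than 6 days by a log2FC of −0.60, at the fold cutoff and not called. CLDN11 and CLDN1, tight junction claudins, had 198 and 192 CPM in young, 39.4 and 37.7 at 3 days, 69.7 and 74.03 at 6 days, and 231 and 249 in MetaICM for CLDN11 and 15.6 and 12.98 CPM in young, 4.05 and 5 at 3 days, 7.18 and 8.31 at 6 days, and 42.9 and 36.6 in MetaICM for CLDN1. CLDN11 was lower at 6 days than in young (log2FC of −1.48, SE 0.11), and in MetaICM was not called against young. CLDN1 rose in MetaICM (log2FC of 1.44, SE 0.15, edgeR adjusted p = 2.79e-04). FGF9, a growth factor, had 4.603 and 5.13 CPM in young, 1.98 and 2.36 at 3 days, 4.57 and 4.97 at 6 days, and 13.6 and 15.6 in MetaICM, with a log2FC of 1.57 (SE 0.18, edgeR adjusted p = 3.9e-04). GCNT4, a glycosyltransferase, had 22.3 and 26.1 CPM in young, 7.58 and 7.5 at 3 days, 14.9 and 15.3 at 6 days, and 40.1 and 36.4 in MetaICM, and GFRA1, a receptor for GDNF, had 156 and 156 CPM in young, 68.9 and 77.3 at 3 days, 144 and 139.6 at 6 days, and 193 and 203 in MetaICM.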

How the data were processed

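Factory RNA-Seq of low-passage IMR90s was analysed in 8 libraries, 2 per condition, grouped by the sample titles. Per the file headers and the submitters' processing notes, the authors aligned read pairs to GRCh37 (hg19) with STAR (version 2.6.0c) and deposited raw counts per RefSeq gene from featureCounts (version 1.6.3), taken over exons, on both strands together, with primary alignments, both ends mapped and no chimeric pairs, and with pairs on several genes left unassigned. The intronic counts of the paper were not used here.

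CPM was each count divided by the total of its library. Each comparison was fitted on its 4 libraries with edgeR (version 4.0.16, R 4.3.3) after filterByExpr at a count minimum of 10 and TMM normalization, using the quasi-likelihood test and Benjamini-Hochberg adjustment over all genes tested. A gene was called where log2FC exceeded 0.6 in either direction and the adjusted p-value was below 0.05. The members, gene lists and tests were chosen with earlier results of these data known. Genes named are the 12 with the largest margin, the 10 with the highest mean CPM in young, the 4 called members that changed most in each direction of each comparison, members of the lists, and the 3 genes on either side of the margin; others are marked as chosen after their values were seen or stand alone as the few members of a count. Positions and exon features came from the count tables and the GRCh37 sequence, and promoters from RefSeq (GRCh38.p14), matched by symbol. Totals of 12095123 to 23166405 counts make genes near 2 CPM the least precise. Alternatives were DESeq2 (version 1.42.0), other normalizations and filters, 1 fit of all libraries, the replicate number as a block, thinning to 12095123 counts, other limits of the rule, and each library left out. Python 3.11.15, pandas 2.3.3, matplotlib 3.10.9 and bedtools 2.31.1 were used.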

Additional observations from a re-analysis of the deposited data

How the results depend on the processing

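The number of members depended on the limits of the rule: 53 genes passed at a margin of 1.5 times, 111 at a CPM minimum of 5, 172 at a CPM minimum of 1, and 166 or 169 when CPM was rescaled by TMM or DESeq2 size factors, 139 of the 140 members among them in both cases. After thinning to the smallest total, 131 passed and 113 were shared. Leaving out 1 library at a time relaxed the rule and gave 162 to 293 genes, with 256 without ICM 3 days replicate 1 and 293 without replicate 2, so the requirement that both 3-day libraries be low sets much of the number. In MetaICM against young, the members called lower ranged from 13 to 25 with 1 library left out, where the lone library of a condition was assumed to vary like the others. IL1B, the 1 member called lower in MetaICM than at 3 days, was lost (0 members) at an adjusted p-value of 0.01, with DESeq2 and with all 8 libraries in 1 fit, and the count ranged from 0 to 1 with 1 library left out. The other counts of called members stayed within 1.5 times under each alternative run, and no named log2FC called in edgeR changed sign.

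The labels number the replicates, but nothing says that equal numbers share a culture or batch, and deviations of equally numbered libraries correlated between −0.111 and 0.172 over 16591 genes. With the replicate number as a block, the members called in MetaICM against young were 23 higher and 22 lower, against 6 days there were 46 higher and 15 lower, and at 6 days against young 5 higher and 39 lower. With 2 libraries per condition, small differences and members near 2 CPM are the least certain.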
